A study of Mus musculus with 9 samples.

Results

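The levels of 9 transcription factors that pattern the forebrain were compared between the cortex of control fetuses and of fetuses exposed to EtOH early in gestation. The genes were Six3, Zic2, Emx1, Emx2, Otx1, Otx2, Lhx2, Nr2f1 and Nr2f2. They were chosen by symbol, because early EtOH exposure gives defects of the forebrain, eye and face, and with earlier results of these data known, although the rule itself uses no measured value. Each symbol was found at 1 locus, so the set holds 9 of 27095 loci in the deposited table, and all 9 had a mean level of at least 1 FPKM. FPKM are fragments per exon length and sequencing depth, a scale that allows levels to be compared between genes.

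RNA-seq covered 9 wild-type fetuses of strain C57BL/6 (C57BL/6J in the study's methods) at gestational day 17, with 3 animals in each of 3 groups: control fetuses, and fetuses of EtOH-treated dams without defects (unaffected) or with them (affected). Exposed dams were given 2.9 g/kg EtOH intraperitoneally on gestational day 7, and control dams lactated Ringer's solution. Both exposed groups therefore share the same dose and day, and they were separated by phenotype: the affected fetuses had ocular and craniofacial or cortical defects at collection, and the unaffected fetuses did not. Fetal brain is the tissue on the labels and cortex that in the study's methods; litter and sex of the sequenced fetuses were not used here. The table holds 1 value per group, set by the authors' software from the 3 animals of the group, so no value below carries an error between animals. The authors' own test results in the table were not used. No difference was tested here, and none was set against the spread between animals. Differences are described by their size, and counts of genes are set beside the share of all loci that differ as much. The number of fragments per library is not given in the sources used here, so no counting interval can be stated.

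In the early embryo, these factors divide the anterior neural plate and later the telencephalon. Six3 and Zic2 act at the rostral midline, where loss of either is a known cause of holoprosencephaly, the failure of the forebrain to split into hemispheres. Otx2 is needed to form the forebrain and midbrain and Otx1 acts later in the cortex, while Lhx2 selects cortical over hem fate and is needed for the eye. Emx2 and Nr2f1 are graded across the cortex, both higher caudally than rostrally, and help to set the position of cortical areas, with Emx1 as the relative of Emx2 in dorsal progenitors and their neurons, and Nr2f2 as the relative of Nr2f1 in caudal and ventral cells and in venous endothelium.

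Marker genes of the telencephalon were high, and those of the midbrain, hindbrain, eye and diencephalon were lower or near 0. The 9 loci of projection neuron markers summed to 849 FPKM in control, 749 in unaffected and 959 in affected fetuses, and the 10 ganglionic eminence and striatum marker loci to 176, 209 and 198. All 10 midbrain and hindbrain markers lay below 0.1 FPKM in every group, with sums of 0.172, 0.202 and 0.134. Of 13 markers of the eye, 8 lay below 0.1 FPKM in every group and the remaining ones summed with them to 8.04, 9.85 and 8.38. Diencephalon markers summed to 35.8, 32.0 and 31.8 FPKM, most of it from Slc17a6 with 23.4, 21.5 and 21.6. The 4 diencephalon markers with a mean of at least 1 FPKM had a median log2 fold change of -0.06 in affected against control offspring, and 1 of them, Tcf7l2, a factor of the thalamus, lay further off with 4.18, 2.29 and 2.39 FPKM. Choroid plexus markers summed to 1017, 1345 and 1129 FPKM, and erythroid loci to 455.8, 595.8 and 372. The tissue thus held cortex with ventral telencephalon, transcripts of choroid plexus and erythroid cells and some diencephalic transcripts. The defining markers of the hindbrain were near 0.

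Of the 9 genes, 6 were highest in the affected group, 3 in the unaffected group and 0 in the control group. Among all 15455 loci with a mean of at least 1 FPKM and a value above 0 in every group, the affected group was highest at 45.0%, the unaffected group at 39.0% and control at 15.9%. The 9 genes summed to 301 FPKM in control, 285 in unaffected and 372 in affected fetuses. Lhx2 and Nr2f1 gave most of these sums, and the other 7 genes together had 95, 98.5 and 110.3 FPKM. In bulk tissue, fewer cells of a type and less RNA per cell cannot be told apart.

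**Figure D1:**
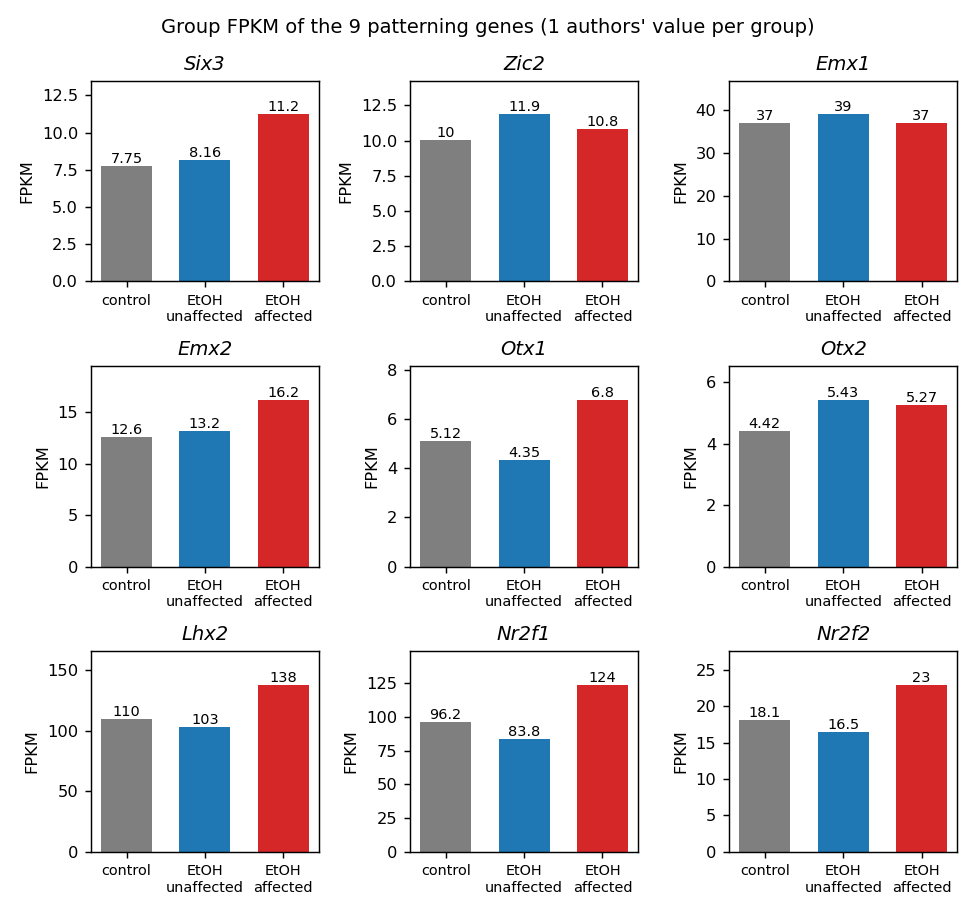
Group FPKM of each of the 9 genes on an axis from 0, with 1 bar each for control, unaffected and affected offspring, the authors' value over 3 animals with no error available. Six3, Emx2, Otx1, Lhx2, Nr2f1 and Nr2f2 are highest in affected offspring, and Emx1 stays between 37.0 and 39.0 FPKM.

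The order of the levels was nearly the same in the 3 groups. Lhx2 was highest, followed by Nr2f1, Emx1, Nr2f2 and Emx2, and Otx1 and Otx2 were lowest in control offspring. Only neighbouring genes changed places: Six3 passed Zic2 in affected offspring, and Otx2 passed Otx1 in unaffected offspring. Without values of single animals, it cannot be said which neighbours in this order differ beyond their spread.

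Six3, a homeodomain factor of the anterior neural plate, eye field and later striatum, had 7.75 FPKM in control, 8.16 in unaffected and 11.2 in affected fetuses. The affected value stood apart from the others, which lay close together. The difference of affected against control was a log2 fold change of 0.53, or 1.45-fold, and exceeded that of 95.9% of loci. Against unaffected offspring the log2 fold change was 0.46. Six3 lies on chromosome 17 of mm10 within chr17:85600653-85626191, an interval that it shares with Six3os1, a noncoding gene on the opposite strand whose GENCODE model overlaps it. Six3os1 had 3.11, 3.83 and 4.0 FPKM. The sources used here do not state that strand was used in counting, so reads of this pair may be mixed where their models overlap. Relative to loci of similar median transcript length, Six3 had 0.424 and Nr2f1 0.425 in affected against control offspring. The following window runs from 250 bases before to 50 bases after the RefSeq start of Six3 (GRCm38.p6, chr17:85620584-85620883, plus strand). It is shown because Six3 had the largest difference from control in the values as deposited. Capitals mark every match on either strand to TAATTA (a core that many homeodomain factors bind), to TAATCC (preferred by OTX proteins), to AGGTCA (a nuclear receptor site), to GGGCGG (bound by Sp factors) or to CCAAT (bound by NF-Y).
Six3: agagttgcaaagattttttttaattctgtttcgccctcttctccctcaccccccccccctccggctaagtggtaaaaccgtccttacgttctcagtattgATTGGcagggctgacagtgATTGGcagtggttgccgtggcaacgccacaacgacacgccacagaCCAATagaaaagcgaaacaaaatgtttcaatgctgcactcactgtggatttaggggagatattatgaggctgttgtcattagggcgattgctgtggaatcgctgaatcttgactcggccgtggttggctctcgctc
The capitals are 3 matches to CCAAT or its reverse complement, a motif with at least 1 match in 37.4% of 32851 windows of the same length, and the other motifs had none here.

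Zic2, a zinc finger factor of the dorsal and rostral midline, was highest in unaffected offspring, with 10.0 FPKM in control, 11.9 in unaffected and 10.8 in affected fetuses. Its log2 fold changes against control were 0.24 in unaffected and 0.11 in affected offspring. Zic2 lies at chr14:122475383-122480328. Its neighbour Zic5 at chr14:122456768-122465753 had 2.51, 3.11 and 2.39 FPKM, and 2610035F20Rik at chr14:122470333-122475199 had 2.11, 2.40 and 1.65. These neighbours were also highest in the unaffected group, and unlike Zic2 they were lowest in the affected group.

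Emx1 and Emx2, both homeodomain factors of the dorsal telencephalon, differed from each other in affected offspring. Emx1, at chr6:85187434-85206071, had 37.0 FPKM in control, 39.0 in unaffected and 37.0 in affected fetuses. Emx2, at chr19:59458689-59465357, had 12.6, 13.2 and 16.2 FPKM. The groups were thus nearly level for Emx1, while Emx2 was 1.29-fold higher in affected than in control offspring, with a log2 fold change of 0.36, and 1.23-fold higher than in unaffected offspring. The Emx1 to Emx2 ratio was 2.94 for control, 2.95 for unaffected and 2.28 for affected offspring. Relative to loci of similar longest transcript, the pair lay closer, with 0.15 for Emx1 and 0.38 for Emx2 in affected against control offspring and 0.17 and 0.35 in affected against unaffected offspring. By median transcript length the pair stayed apart, with 0.04 and 0.39 in affected against control offspring and 0.01 and 0.35 in affected against unaffected offspring. Emx2os, a noncoding gene on the opposite strand whose GENCODE model overlaps Emx2, had 1.0, 1.1 and 1.0 FPKM. The windows around the RefSeq starts of the Emx pair are set side by side because their unscaled levels parted in affected offspring (GRCm38.p6, chr6:85187681-85187980 and chr19:59458440-59458739, both on the plus strand), with capitals as above.
Emx1: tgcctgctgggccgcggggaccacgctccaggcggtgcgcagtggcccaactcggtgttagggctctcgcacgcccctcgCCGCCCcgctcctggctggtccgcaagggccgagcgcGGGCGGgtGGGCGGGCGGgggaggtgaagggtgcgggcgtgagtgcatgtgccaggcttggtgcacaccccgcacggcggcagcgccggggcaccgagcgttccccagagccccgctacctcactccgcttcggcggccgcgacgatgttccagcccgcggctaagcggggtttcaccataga
Emx2: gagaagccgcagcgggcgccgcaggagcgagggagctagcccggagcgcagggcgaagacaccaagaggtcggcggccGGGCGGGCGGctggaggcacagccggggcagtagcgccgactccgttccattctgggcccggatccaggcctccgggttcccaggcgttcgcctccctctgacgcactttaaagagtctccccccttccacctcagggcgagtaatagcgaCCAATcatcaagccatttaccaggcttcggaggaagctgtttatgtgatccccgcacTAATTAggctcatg
The Emx1 window holds 37 CG dinucleotides and 4 matches to GGGCGG, some of them overlapping, and no other motif searched. The Emx2 window holds 26 CG dinucleotides, 2 matches to GGGCGG that overlap, 1 to CCAAT and 1 to TAATTA. Of all windows, 35.7% hold at least 1 match to GGGCGG and 5.29% at least 1 to TAATTA, and the median window holds 7 CG dinucleotides.

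Otx1 and Otx2, homeodomain factors of the fly orthodenticle family, also differed from each other. Otx1, at chr11:21994763-22001651, had 5.12 FPKM in control, 4.35 in unaffected and 6.80 in affected fetuses. Otx2, at chr14:48657554-48667524, had 4.42, 5.43 and 5.27 FPKM. Otx1 was lowest in the unaffected and highest in the affected group, whereas Otx2 was higher in both exposed groups than in control. Of the 9 genes, Otx1 showed the largest difference of affected against unaffected offspring, with a log2 fold change of 0.64, or 1.56-fold, in the values as deposited. Relative to loci of similar transcript length, Nr2f1 had the largest, with 0.69 against 0.53 for Otx1 by median and 0.58 against 0.46 by longest transcript. The log2 fold change of Otx1 against control was 0.41 in affected and -0.23 in unaffected offspring. For Otx2 these values were 0.25 and 0.30. The Otx1 to Otx2 ratio was 1.16 for control, 0.801 for unaffected and 1.29 for affected offspring. Relative to loci of similar longest transcript, Otx1 and Otx2 had 0.28 and 0.30 in affected against control offspring, so the pair no longer differed in that comparison as it did unscaled, and 0.46 and 0.05 in affected against unaffected offspring. Otx2os1, which overlaps Otx2 on the opposite strand, lay below 1 FPKM in every group, with 0.243, 0.50 and 0.458. Of 4 RefSeq start windows of Otx2, the one at chr14:48665060-48665359 (GRCm38.p6, minus strand) is shown because it holds the most homeodomain-type motifs of all windows of the 9 genes.
Otx2: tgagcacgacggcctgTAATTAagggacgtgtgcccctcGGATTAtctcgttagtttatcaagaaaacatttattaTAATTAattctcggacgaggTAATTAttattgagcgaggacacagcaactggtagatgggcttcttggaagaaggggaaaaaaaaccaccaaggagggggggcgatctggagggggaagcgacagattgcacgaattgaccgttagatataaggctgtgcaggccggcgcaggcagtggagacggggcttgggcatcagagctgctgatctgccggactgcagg
It holds 3 matches to TAATTA and 1 to the reverse complement of TAATCC, which has a match in 7.06% of all windows. A match is a sequence description only.

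Lhx2, a LIM homeodomain factor of cortical progenitors and upper-layer neurons, had 110 FPKM in control, 103 in unaffected and 138 in affected fetuses. Nr2f1, also called COUP-TFI, had 96.2, 83.8 and 124 FPKM. Nr2f2, or COUP-TFII, had 18.1, 16.5 and 23.0 FPKM. These genes shared 1 order of groups, with unaffected lowest and affected highest, which Otx1 had as well. The share of all loci with this order was not counted, so it is a description only. Against control, affected offspring were 1.26-fold higher for Lhx2, 1.29-fold for Nr2f1 and 1.27-fold for Nr2f2. Against unaffected offspring, the log2 fold changes were 0.43, 0.56 and 0.48. The ratio of Nr2f1 to Nr2f2 was 5.30, 5.08 and 5.39 in control, unaffected and affected offspring. Lhx2 lies at chr2:38336051-38369740, Nr2f1 at chr13:78188972-78236564 and Nr2f2 at chr7:70351949-70411146. The intervals of Nr2f1 and Nr2f2 also hold A830082K12Rik and B130024G19Rik on the opposite strand, and their reads may be mixed with those of the nuclear receptors. A830082K12Rik had 6.17, 5.78 and 6.42 FPKM and B130024G19Rik 0.394, 0.232 and 0.167, all far below the receptor beside them. The interval of Lhx2 also holds 4 unnamed loci with mean levels from 0.538 to 1.65 FPKM.

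The first comparison asked whether exposure without visible defects left these genes altered. Between unaffected and control offspring, 0 of the 9 genes reached a log2 fold change of 0.32 in size (25% higher, or lower by the same ratio), the limit used from here on. Of 15463 loci, 12.6% reached it in either direction, with 5.56% higher and 7.01% lower. The values ran from -0.23 for Otx1 to 0.30 for Otx2 on the log2 scale, with 5 genes above and 4 below 0 and a median of 0.07, against a median of 0.01 over all loci. Otx2, at 1.23-fold, and Zic2, at 1.18-fold, came nearest to the limit on the higher side, and Otx1 on the lower side. At a limit of 15%, which 25.1% of loci passed, these 3 genes were past it.

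The next comparison asked whether fetuses with defects differed from control. Of the 9 genes, 6 were past the limit and higher in affected than in control offspring, namely Six3, Otx1, Nr2f1, Emx2, Nr2f2 and Lhx2, and 0 were as much lower. The count was 4 after centring on the median of all loci, without Lhx2 and Nr2f2, and 4 relative to loci of similar longest transcript, without Otx1 and Nr2f2. Over 15474 loci, 12.6% were past it on the higher and 11.6% on the lower side in the values as deposited. The share of loci after centring was not counted. The median log2 fold change of the 9 genes was 0.34, against 0.02 over all loci, and all 9 lay above 0, as did 52.9% of loci, although Emx1 was at 0.00 and turned to -0.02 once the median of all loci was subtracted. Lhx2 and Nr2f2 were just past the limit, Otx2 at 1.19-fold was the next below it, and at 1.5-fold, which 3.48% of loci passed on the higher side, the count was 0.

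Affected and unaffected offspring, which share dose and day of exposure, differed more widely over all loci, and 20.7% of 15467 loci were past the limit on the higher and 18.5% on the lower side in affected offspring. Of the 9 genes, 5 were, namely Otx1, Nr2f1, Nr2f2, Six3 and Lhx2, with 0 as much lower. Emx2 at 1.23-fold fell short. At 1.5-fold, which 7.2% of loci passed on the higher side, Otx1 was the 1 gene left, and relative to loci of similar median transcript length it was Nr2f1 in place of Otx1. The median log2 fold change was 0.43, against 0.01 over all loci, and Zic2, Emx1 and Otx2 had values of -0.13, -0.07 and -0.05. The 3 comparisons share groups, so their values for a gene are not independent.

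**Figure D2:**
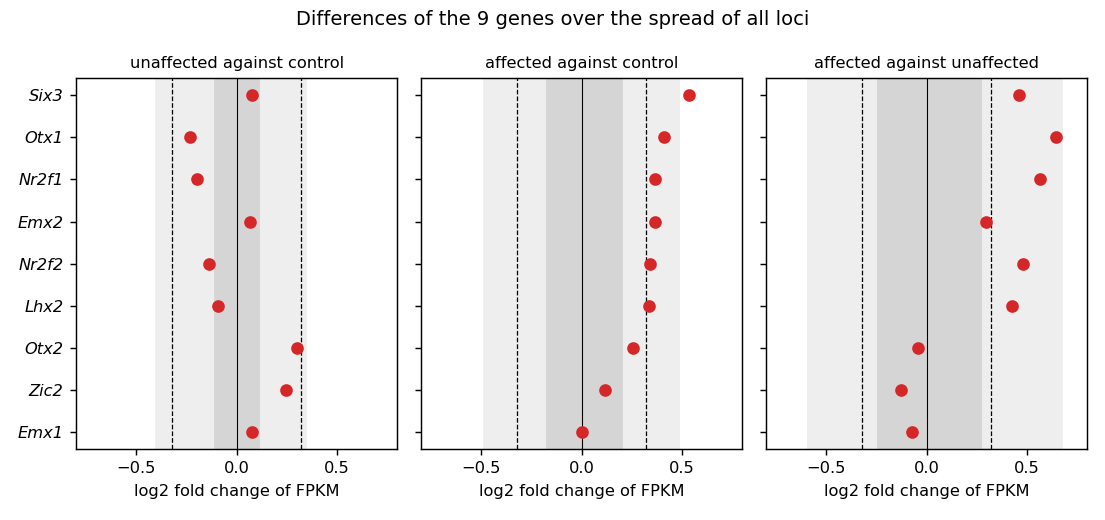
Log2 fold change of group FPKM for each of the 9 genes (points) in the 3 comparisons, over the interquartile range (dark band) and the 5% to 95% range (light band) of all loci with a mean of at least 1 FPKM. Dashed lines mark the 25% limit; no gene passes them in unaffected against control offspring, and 6 pass in affected against control offspring.

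Fold changes moved with transcript length over the 12559 loci that had a length, so the 9 genes were also set against loci of similar length. By the longest transcript of a gene in GENCODE M21, the quintile of loci with the shortest transcripts had a median log2 fold change of -0.20 in affected against control offspring and the quintile with the longest 0.19. In unaffected against control offspring the same quintiles had 0.11 and -0.10. The longest transcripts of the 9 genes ran from 1561 nt for Emx1 to 5273 nt for Otx1. Relative to the running median of loci of similar longest transcript, the log2 fold changes of affected against control offspring were between 0.15 for Emx1 and 0.49 for Six3, and their median was 0.30. Six3, Emx2, Lhx2 and Nr2f1 then stayed past the limit, while Otx1 and Nr2f2, whose transcripts are the longest of the set, had 0.28 each. Of loci with a length, 4.39% were past it on the higher side under this scaling. In affected against unaffected offspring the same scaling left 6 genes past the limit, with Emx2 added, beside 9.79% of loci. Between unaffected and control offspring 0 genes and 3.18% of loci were past it in either direction, and the median of the 9 became -0.02. With the median over a gene's transcripts as the length instead, 6 genes were past the limit in affected against control offspring, and Otx2 stood in the place of Otx1, beside 7.45% of loci on the higher side. In affected against unaffected offspring 6 genes were past it, beside 15.3% of loci.

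**Figure D3:**
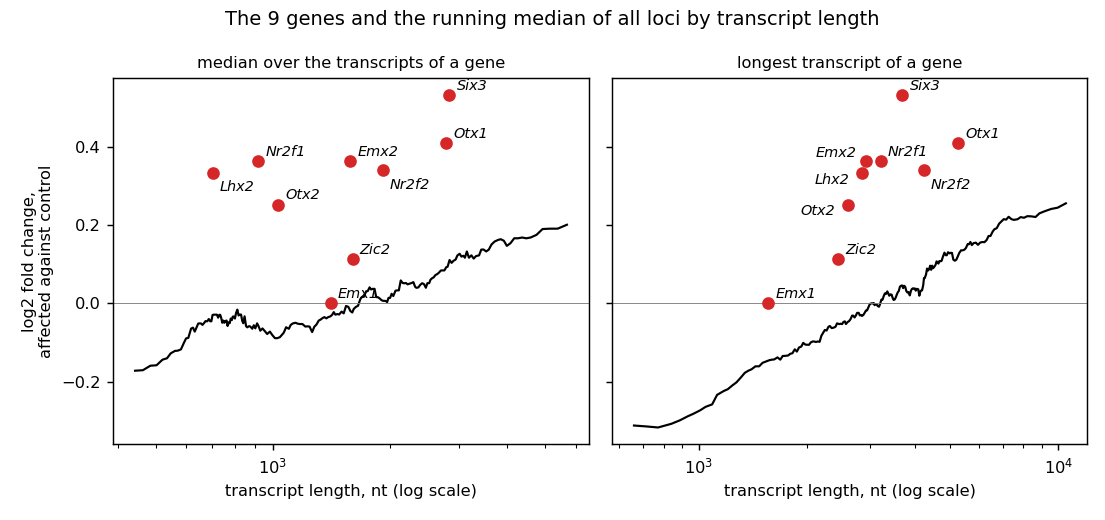
Log2 fold change of affected against control offspring by transcript length on a log axis, for the 9 genes (points) and as the running median over loci of similar length (line), with length as the median or the longest transcript of a gene. Over its whole range the line goes up with length in both panels, with a dip near the lengths of Nr2f1 and Otx2 in the panel of median lengths, and all 9 points lie above it.

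Genes with related roles were compared with the 9 genes. Of 20 other genes linked to holoprosencephaly, which include receptors and regulators of Sonic hedgehog and cohesin subunits, 14 had a mean of at least 1 FPKM. In affected against control offspring 7 of the 14 were higher past the limit and 0 lower, where 12.6% and 11.6% of all loci were, their median log2 difference was 0.35, and in unaffected against control offspring 0 passed it in either direction, where 12.6% of all loci did. Gli2, a transcription factor of the hedgehog pathway, had 1.89 FPKM in control, 1.97 in unaffected and 3.20 in affected fetuses. Smc1a, a cohesin subunit and the most abundant of the list, had 38.8, 33.4 and 51.0 FPKM, and Stag2, another cohesin subunit, had 19.2, 19.4 and 18.6. The other 6 genes, named for completeness after their values were seen, were Shh, Hhat, Nodal, Foxh1, Fgf8 and Tdgf1, which lay below 1 FPKM on average.

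Of 15 further transcription factors of telencephalic and cortical patterning, 14 passed the minimum, and 8 of these were past the limit and higher in affected than in control offspring, with 0 lower and a median of 0.33, where 12.6% of all loci were higher. The lists share genes, so their counts are not independent. Of these 8, Tbr1 and Fezf2 are also counted among the projection neuron markers, Eomes among the progenitor markers and Nr2e1 among the family relatives. In unaffected against control offspring 2 of the 14 were higher past the limit, beside 5.56% of all loci, and 0 lower. Fezf1, a zinc finger repressor, had 0.800 FPKM in control, 1.72 in unaffected and 1.74 in affected fetuses, and Sp8, a zinc finger factor of rostral progenitors, had 4.50, 4.94 and 4.28. Of 16 secreted signals of the midline and hem, 11 passed the minimum, and 4 of these were past the limit on the higher side in affected against control offspring, where 12.6% of all loci were, and 0 on the lower side. In unaffected against control offspring 2 of the 11 were higher and 0 lower. Wnt7b, the most abundant, had 45.4, 42.7 and 60.4 FPKM.

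Relatives from the same gene families stood near the share of all loci in affected against control offspring but not in the other comparisons. Of 13 loci past the minimum, 2 were higher and 2 lower past the limit in affected against control offspring, where 12.6% and 11.6% of all loci were, and the median log2 difference was -0.01. In unaffected against control offspring 4 were higher, beside 5.56% of all loci, and 0 lower. In affected against unaffected offspring 1 was higher and 5 were lower, beside 20.7% and 18.5% of all loci. Zic4, with the largest difference on the lower side in affected against control offspring, had 5.78 FPKM in control, 8.34 in unaffected and 4.32 in affected fetuses. Zic1, named after its values were seen as the most abundant of the Zic genes, had 21.7, 29.4 and 17.5 FPKM. Zic2 shared with Zic1 and Zic4 the highest value in unaffected offspring but was not lower in affected than in control offspring.

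**Figure D4:**
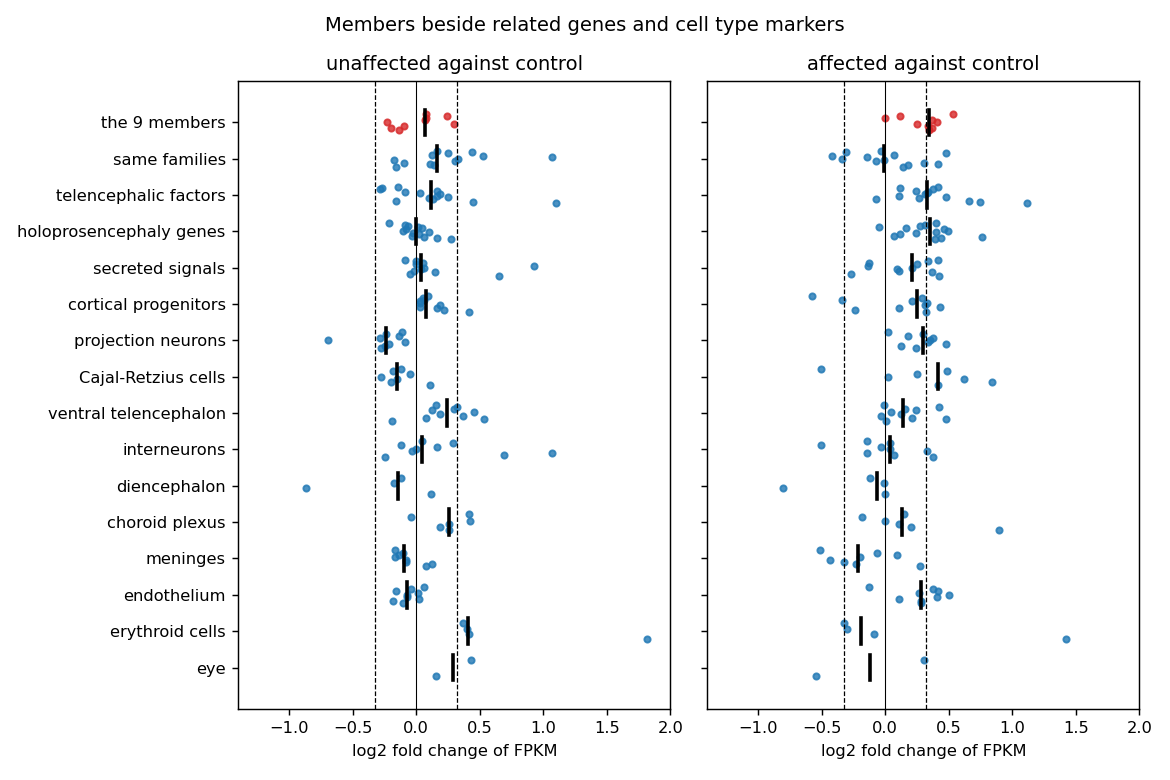
Log2 fold change of group FPKM in unaffected and affected against control offspring, for the 9 genes and for each list of related genes or cell type markers with a mean of at least 1 FPKM (points, with the median of each list as a black bar and dashed lines at the 25% limit). The median of the 9 genes is 0.07 in unaffected and 0.34 in affected offspring.

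Markers of cell types that express some of the 9 genes also differed between groups, and their part in the differences was not tested. In affected against control offspring, 12.6% of all loci were past the limit on the higher and 11.6% on the lower side, which the counts below are read against. All 9 projection neuron markers were above control in affected offspring, 4 of them past the limit, their median log2 difference was 0.30, and all 9 were below control in unaffected offspring, with a median difference of -0.23. Bcl11b, a factor of deep-layer neurons, had 32.7, 28.2 and 45.5 FPKM. This is the order of groups seen for Lhx2, Nr2f1, Nr2f2 and Otx1. Genes of other lists, such as Smc1a and Kdr, had it too. Of the 10 progenitor markers, 3 were higher and 2 lower past the limit in affected against control offspring, 7 lay above 0, and the median was 0.25. Nes, an intermediate filament of progenitors with the largest value on the higher side, had 26.8, 27.3 and 36.1 FPKM. Fabp7, a marker of radial glia with the largest value on the lower side, had 2015 FPKM in control, 2151 in unaffected and 1352 in affected fetuses. Of the 10 ganglionic eminence and striatum markers, which accompany Six3, 2 were past the limit and higher in affected offspring, near the share of all loci, with a median of 0.14. In unaffected offspring 3 were, beside 5.56% of all loci, with a median of 0.24. Between affected and unaffected offspring the list went both ways, with 4 of 10 above 0 and a median of -0.06. In that comparison 2 were past the limit and lower and 0 higher, where 18.5% and 20.7% of all loci were.

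Endothelium, where Nr2f2 marks veins, had 4 of 9 markers past the limit and higher in affected against control offspring and 0 lower, and the summed level was 90.5, 89.7 and 102 FPKM in control, unaffected and affected offspring. Kdr, a receptor for vascular growth factor, had the largest rise of the list, with 5.02, 4.76 and 7.09 FPKM. Cldn5, the most abundant of the list, went the other way, with 36.9, 38.4 and 33.9 FPKM. Nrp2, 1 of the 4 and named after its values were seen, had 20.3, 19.7 and 26.3 FPKM. Choroid plexus epithelium, which expresses Otx2, had a summed marker level of 1017, 1345 and 1129 FPKM, nearly all of it from Ttr with 970, 1291 and 1077. Otx2 and Ttr were thus both lowest in control and highest in unaffected offspring. Of the other markers past the minimum, named after their values were seen, Folr1 had that order too. Kcne2 was also highest in unaffected offspring, with 14.07 FPKM, but was nearly level between control and affected offspring, with 10.51 and 10.49 FPKM. Aqp1 and Clic6 were highest in affected offspring, and Enpp2 was highest in control. Of 8 meninges markers, 3 were past the limit and lower in affected against control offspring and 0 higher, with sums of 95.9, 88.6 and 81.4 FPKM. Cajal-Retzius cell markers had 4 of 7 higher and 1 lower, and among these Ebf3, with 1.70, 1.48 and 3.04 FPKM, had the largest difference. Interneuron markers summed to 599, 667 and 570.2 FPKM, most of it from Npy and Sst. Of the 9 past the minimum, 2 were higher and 1 lower past the limit in affected against control offspring, with a median of 0.03. The lower marker, Calb2, was also the lower marker of the Cajal-Retzius list. The erythroid loci summed to 455.8, 595.8 and 372 FPKM, nearly all of it from a pair of alpha-globin loci, while Hbb-y, an embryonic globin, had 0.953, 3.34 and 2.56.

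By the pair of log2 fold changes against control, the genes of these lists nearest to each of the 9 were found among 119 loci, as a description over 3 group values. Fezf2, a factor of deep-layer projection neurons, was nearest to Lhx2 at a distance of 0.0020 and to Nr2f2 at 0.046. Smc1a and Prox1 were nearest to both Otx1 and Nr2f1. Nes and Lhx5 were nearest to Six3, Dll1 and Eomes to Emx2, and Folr1 and Gad2 to Zic2. Emx1 lay nearest to Barhl2 and Dlx1, and Otx2 to Dlx5 and Neurog2.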

How the data were processed

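RNA from 9 fetal cortices was sequenced, with 3 animals per group. The authors deposited 1 FPKM value per group and locus, made with Cufflinks and Cuffdiff after alignment to mm10. Their methods name STAR with default parameters and also Bowtie with TopHat, and the submitters' processing notes name Bowtie2 2.2.4.0. The fold changes, test statistics, p-values and q-values of the authors' own comparisons in the same table were not used. The table holds 0 columns for single animals.

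Log2 fold changes were ratios of group FPKM without a pseudocount, over 15548 loci with a mean FPKM of at least 1; a locus at 0 in a compared group was left out. A difference of 25% or more, or its reciprocal, was counted. The procedure was run in Python 3.11.15 with pandas 2.3.3. Only the scaling to loci of similar median transcript length was tested on simulated data, with planted changes larger than those of the 9 genes against control. The scaling by longest transcript and the counts were not simulated. Transcript lengths came from GENCODE M21 for 12559 of these loci (80.8%) and all 9 genes, by symbol or RefSeq synonym. RefSeq start windows (GRCm38.p6) were found for 7 of the 9 genes.

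All 9 genes, loci within 50 kb of them and, from each list, the most abundant gene and those with the largest rise and fall in affected against control offspring were eligible for naming, as were the 2 nearest list genes of each; a few others were named after their values were seen. The members and lists were chosen with earlier results of these data known. Alternatives covered pseudocounts, filters, scaling, fold limits and joined loci. The number of animals, and the absence of values per animal, limits the precision. Some list genes are not reported here by name.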

Additional observations from a re-analysis of the deposited data

How the results depend on the processing

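No paired analysis was possible because the deposited columns hold 1 value per group and no values of single animals, and no animal could be left out in turn for the same reason. Fold limits moved the counts most. At 1.5-fold, 0 genes were past the limit in affected against control offspring and 1, Otx1, in affected against unaffected offspring, and at 15% 3 genes, Zic2, Otx1 and Otx2, were past it in unaffected against control offspring. The median log2 fold change of the 9 genes in affected against control offspring was 0.32 after centring on the median of all loci and 0.30 relative to loci of similar longest transcript, an alternative added after seeing the data, and so was just under the 25% limit, whose log2 is also 0.32 when rounded. Centring took 2 of the 27 values of single genes, those of Lhx2 and Nr2f2 in affected against control offspring, under the limit, and changed the sign of 1, that of Emx1 in the same comparison. Pseudocounts of 0.1 and 1, a mean FPKM of at least 5, no filter and single-name loci took 0 values across it. Scaling to the longest transcript took 2 values under it and 1 over it, and changed the sign of 3, all within the 25% limit in the unscaled data. Scaling to the median transcript length took 1 value under the limit and 2 over it, and changed the sign of 2.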

Other observations

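Of the loci within 50 kb of the 9 genes, some followed the gene beside them over the 3 groups and others did not. Dennd1a, next to Lhx2, had 9.15 FPKM in control, 8.59 in unaffected and 11.4 in affected fetuses, and Ehbp1, next to Otx1, had 17.8, 16.2 and 21.0, the order of groups that Lhx2 and Otx1 also had. Crb2, a cell polarity gene beside Lhx2, had 1.42, 1.62 and 2.2 FPKM. Fam172a, next to Nr2f1, had 20.8, 21.1 and 21.6 FPKM and so stayed nearly level where Nr2f1 did not. Clybl, beyond Zic5 on the same chromosome as Zic2, had 6.37, 7.83 and 4.57 FPKM, and Gm5089 had 6.16, 7.17 and 4.88, so that both were lowest in affected fetuses, where Zic2 was not. Spr and Sfxn5, on either side of Emx1, had 24.0, 25.8 and 20.8 and 7.71, 7.36 and 6.57 FPKM. None of these differences was tested.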
